A study of Mus musculus with 7 samples.

Results

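The Nr4a genes encode a small family of orphan nuclear receptors, and their RNA was followed in sorted mouse thymocytes through every array probe that the scanner files name Nr4a1, Nr4a2 or Nr4a3. That rule found 3 probes, 1 for each gene, of 41174 on the array. All 3 were among the 34906 probes, of 23602 genes and other targets, that were bright enough to be tested. Each of 7 Agilent 2-colour arrays set RNA of DN4 thymocytes against RNA of DN3 thymocytes, with the cells sorted by flow cytometry. All mice were BALB/c and lacked Rag2, without which a thymocyte cannot rearrange its own T cell receptor genes. The DN4 cells came from Rag2-/- mice with the KN6 γδ T cell receptor transgene and are labelled Lig+ (4 arrays) or Lig- (3 arrays). The DN3 cells came from Rag2-/- mice without the transgene and were the other channel of every array. The transgenic cells thus carried 1 receptor specificity only. The labels of slides 3 and 4 do not name the DN4 stage in their source, and how the Lig- cells came to lack the ligand is not stated.

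NR4A proteins bind DNA as monomers or dimers through a zinc finger domain, and their ligand pocket is largely filled by side chains of the receptor itself, so their activity follows mainly from how much protein is made and how it is modified. Antigen receptor signalling induces their genes within a short time and without new protein synthesis, which makes them immediate early genes. In thymocytes, Nr4a1 (Nur77) is a widely used gauge of the strength of T cell receptor signals and is linked to the death of cells with a strong response to self. Nr4a2 (Nurr1) is best known from dopaminergic neurons and Nr4a3 (Nor1) overlaps with Nr4a1 in thymocyte death. DN3 is the stage at which thymocytes await a first receptor signal, and DN4 the stage that follows it.

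The promoters of the 3 genes are shown because one short motif recurs in all of them. They are the 250 bases before the transcript start that the RefSeq promoter table uses (GRCm38.p6), read 5′ to 3′ on the gene's strand, and capitals mark TGACG on either strand, the core of the site that cAMP response element binding factors recognise. The windows are chr15:101266596-101266845 (plus strand) for Nr4a1, chr2:57124004-57124253 (minus strand) for Nr4a2 and chr4:48045055-48045304 (plus strand) for Nr4a3. The Nr4a1 window lies inside the span of the whole gene, chr15:101253902-101274795, and the Nr4a3 window partly inside chr4:48045078-48086447, since their genes have other, more upstream starts.
Nr4a1: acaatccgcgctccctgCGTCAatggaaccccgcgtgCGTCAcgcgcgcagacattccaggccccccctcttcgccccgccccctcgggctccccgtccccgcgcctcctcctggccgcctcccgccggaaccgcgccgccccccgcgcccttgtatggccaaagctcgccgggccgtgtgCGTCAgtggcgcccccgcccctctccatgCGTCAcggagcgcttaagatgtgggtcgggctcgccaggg
Nr4a2: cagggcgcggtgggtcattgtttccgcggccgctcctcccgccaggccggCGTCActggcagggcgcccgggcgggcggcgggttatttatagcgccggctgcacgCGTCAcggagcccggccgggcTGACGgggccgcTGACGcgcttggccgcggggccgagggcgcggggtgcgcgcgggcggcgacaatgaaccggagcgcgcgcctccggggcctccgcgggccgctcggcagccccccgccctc
Nr4a3: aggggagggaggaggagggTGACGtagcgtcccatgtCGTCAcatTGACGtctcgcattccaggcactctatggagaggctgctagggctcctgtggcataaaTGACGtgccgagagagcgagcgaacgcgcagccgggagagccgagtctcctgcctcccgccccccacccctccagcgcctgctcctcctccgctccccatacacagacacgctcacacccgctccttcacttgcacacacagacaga

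TGACG occurred 4 times in each window. Counted from the base of the motif farthest from the start, the matches lay 233, 213, 69 and 40 bases before it in Nr4a1. In Nr4a2 the distances were 200, 144, 123 and 111 bases, and in Nr4a3 231, 213, 205 and 147 bases. Of 32851 mouse promoter windows of that length, 17.8% held the motif at least 1 time and 0.137% (45 windows) at least 4 times. The motif was chosen after these sequences had been seen, so its frequency is a description. The full palindrome TGACGTCA, which contains the shorter motif and was in 1.55% of windows, had no match in the 3. Neither did AAAGGTCA, the monomer element that NR4A proteins bind (1.34% of windows). Nor did the serum response element in its strict form, CCWWWWWWGG with W for A or T (1.47%). Looser forms of it were not searched. The MEF2 element (2.92% of windows), bound by factors that regulate Nr4a1, had 1 match in the Nr4a2 window. A match shows letters only, and no binding was measured.

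The Nr4a1 probe, A_51_P239654, lay at chr15:101260484-101260543 in the coordinates of build mm7 that the scanner files of slides 3 and 4 carry. The Nr4a2 probe, A_52_P494622, was placed on the minus strand at chr2:57108976-57109035. The Nr4a3 probe, A_51_P128397, spanned chr4:48081632-48084818, which is 3187 bases for a probe of 60 bases. No mm7 gene models were used here, so exon and UTR are not given. Probes differ in how well they bind their target, so levels are compared between arrays for 1 probe and never between the 3 probes.

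The share of probes well above background was 72.9% to 85% for DN4 and 75.8% to 83.8% for DN3, with 0 saturated spots. With 7 arrays, the number of arrays limits the precision. Of 10 marker genes of the DN3 stage, 9 were lower in DN4 cells of either group, among them Il2ra, the CD25 chain (log2 change of -5.29 in Lig+ and -5.45 in Lig-). The list's median was -4.30 in Lig+ and -2.59 in Lig-. Between the groups, Dntt, the terminal transferase (-3.48, limma adjusted p = 0.0165), and Notch3, a Notch receptor (-1.88, 0.0459), were lower in Lig+, with a list median of -0.72. Of the 10 markers limma thus called 0 higher and 2 lower between the groups, and Il2ra was at 0.16. The part of DN3-stage markers in the Nr4a differences was not tested. The Rag2 probe was also lower (-3.04 ± 0.0925 and -3.02 ± 0.101, SE), but whether it lies in the deleted part is not given, so it does not check the genotype. Cd3e, a chain of the T cell receptor complex, was lower by a smaller step (-0.46 ± 0.123 and -0.66 ± 0.135). It is 1 of 10 T and γδ cell markers, which moved in both directions. Against DN3, 4 were higher and 3 lower in Lig+ (median 0.27), and 6 higher and 3 lower in Lig- (median 0.93). Between the groups 1, Cd28 (2.62), was higher in Lig+ and 3, Thy1, Sox13 and Cd24a, were lower (median -0.23). The submitters describe biological replicates, but whether the dye-swapped array of a group shared RNA with another is not stated, so p-values measure only the spread between these arrays. In bulk samples fewer expressing cells and less RNA per cell cannot be told apart.

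Nr4a1, the family member most used to read T cell receptor signalling, was far above DN3 in both DN4 populations and higher in Lig+ than in Lig- cells. On the Lig+ arrays of slides 1 to 4 the log2 ratio of DN4 over DN3 was 5.33, 3.74, 4.84 and 4.96, a mean of 4.72 ± 0.686 (SD, n = 4). On the Lig- arrays of slides 1 to 3 it was 3.13, 2.86 and 3.01, a mean of 3.00 ± 0.137 (SD, n = 3). All 4 Lig+ arrays lay above all 3 Lig- arrays, with the Lig+ array of slide 2 nearest to them. Of all probes, 10.6% separated the groups in that direction.

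The ratios were fitted with limma over all probes, with a term for the dye orientation and Benjamini-Hochberg adjustment at a threshold of 0.05. The ratio was tested against 0, since DN3 RNA was hybridised only as the other channel of these arrays. Any spread of DN3 between arrays is inside the ratios, and whether the DN3 RNA was 1 pool is not stated. Nr4a1 was 28.8-fold above DN3 in Lig+ cells (log2 change of 4.85 ± 0.227 SE, limma adjusted p = 2.6e-05), the 25th highest change of 34906 probes, in a comparison where 36.6% of probes passed the threshold. In Lig- cells it was 8.48-fold above DN3 (3.08 ± 0.249, limma adjusted p = 0.000271), the 158th highest, where 31.7% of probes passed. Between the groups the ratio was 3.40-fold higher in Lig+ (1.76 ± 0.321, 95% interval 0.99 to 2.54, limma adjusted p = 0.0208), where 10.9% of probes passed and 4.57% were higher. An exact two-sided permutation test of the group means over the 7 arrays gave p = 0.0571 for Nr4a1, where the smallest possible is 0.0286 (adjusted over the 3 genes, 0.0571 for Nr4a1 and 0.0429 for the other two). The gap was 1.54 on the first scan day (slides 1 and 2) and 1.90 on the second (slides 3 and 4), given as values only, since the second day holds 1 Lig- array and a fit within a day has 1 residual degree of freedom. With slide as a block it was 1.64 (limma adjusted p = 0.0227). It missed the threshold without any single array except Lig+ replicate 2. The value was 1.58 (limma adjusted p = 0.117) without replicate 1 of Lig+ or of Lig-, 1.78 (0.0847) without Lig- replicate 2, 1.68 (0.062) without Lig+ replicate 3, 1.87 (0.0607) without Lig- replicate 3 and 1.64 (0.0537) without Lig+ replicate 4.

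Nr4a2 rose above DN3 in Lig+ cells, and its change in Lig- cells did not pass the test. Its log2 ratio was 2.15, 1.69, 2.85 and 3.105 on the Lig+ arrays of slides 1 to 4 (mean 2.45 ± 0.647, SD, n = 4). The Lig- arrays of slides 1 to 3 gave 0.45, 0.37 and 0.78 (mean 0.53 ± 0.216, SD, n = 3). The groups did not overlap, as for 10.6% of all probes in that direction. Within Lig+ both arrays of the second scan day were the highest. Nr4a2 was 5.22-fold above DN3 in Lig+ (log2 change of 2.38 ± 0.246, limma adjusted p = 0.000539), the 400th highest of all probes. In Lig- the change was 0.49 ± 0.269 with a 95% interval of -0.16 to 1.14 (limma adjusted p = 0.229). The change passed with scan day as a fixed term (0.73, limma adjusted p = 0.0101). It was 0.41 on day 1 and 0.78 on day 2, where it rests on 1 Lig- array.

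Between Lig+ and Lig- cells the Nr4a2 ratio differed 3.72-fold (1.89 ± 0.348, 95% interval 1.06 to 2.73, limma adjusted p = 0.0213; exact permutation p = 0.0286, the smallest possible). It was higher on 4 of 4 Lig+ arrays than on any Lig- array, as were 10.6% of all probes. The gap was 1.51 on scan day 1 and 2.20 on day 2, with its 1 Lig- array. With slide as a block it was 1.70 (limma adjusted p = 0.00684). Without replicate 1 of Lig+ or of Lig- the value was 1.98 and missed the threshold (limma adjusted p = 0.0969), as it did without Lig- replicate 2 (1.74, 0.0964), Lig+ replicate 3 (1.78, 0.0614) or Lig- replicate 3 (1.99, 0.0652).

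Nr4a3, the third receptor, was measured near background. It reached the 3 arrays above background needed for testing only through the DN4 signal of the Lig+ arrays. Its Lig+ calls are therefore descriptions and not independent of that filter. Its log2 ratio was 0.67, 0.77, 0.82 and 0.56 on the Lig+ arrays (mean 0.70 ± 0.117, SD, n = 4). It was -0.18, 0.14 and 0.25 on the Lig- arrays (mean 0.068 ± 0.224, SD, n = 3). Every Lig+ array was above every Lig- array, as for 10.6% of all probes, and the Lig- arrays lay on both sides of DN3. The probe was dim: its DN4 signal was well above background on 4 of 4 Lig+ arrays and on 1 of 3 Lig- arrays. In the DN3 channel that held on 2 of 7 arrays, neither of them a Lig+ array. By the plain group means Nr4a3 was therefore at least 1.63-fold higher in Lig+ DN4 than in DN3 cells. Here at least covers only the dim DN3 signal, taken as an upper bound. The figure allows for neither the dye nor the spread between arrays, and the dye-adjusted fit gave 1.57-fold.

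The fit, which adjusts for dye and takes the dim DN3 signal as measured, gave 0.65 ± 0.0814 for Nr4a3 in Lig+ over DN3 cells (limma adjusted p = 0.00121) and 0.034 ± 0.0892 in Lig- (95% interval -0.18 to 0.25, limma adjusted p = 0.82). Between the groups the difference was 0.62 ± 0.115 (95% interval 0.34 to 0.90, limma adjusted p = 0.0224; exact permutation p = 0.0286, the smallest possible). It was 0.74 on scan day 1 and 0.44 on day 2, with its 1 Lig- array. With slide as a block it was 0.68 (limma adjusted p = 0.0121). Its size also depended on the handling of dim signal, since Agilent's processed signals gave 1.98 for Lig+ over DN3 and 1.79 for Lig+ over Lig-. The difference between the groups missed the threshold without replicate 1 of Lig+ or Lig- (0.52, limma adjusted p = 0.13), without Lig- replicate 2 (0.62, 0.096) and without Lig+ replicate 3 (0.60, 0.0667).

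**Figure D1:**
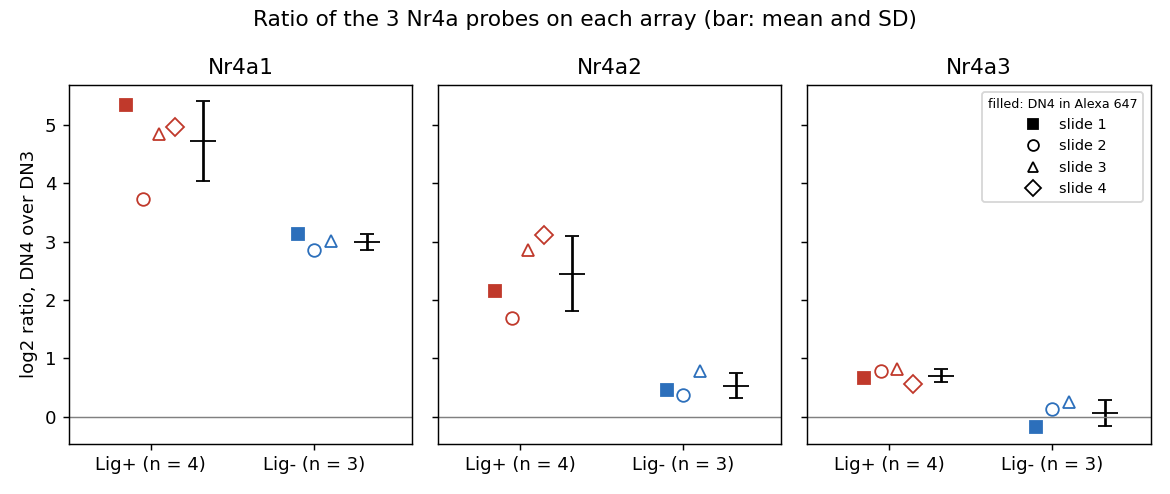
The log2 ratio of DN4 over DN3 of each Nr4a probe is plotted for every array, with points for the 4 Lig+ and 3 Lig- arrays and a bar for the mean and SD. For each gene all Lig+ points lie above all Lig- points, as for 10.6% of all probes. The lowest Lig- point of Nr4a1 is at 2.86.

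All 3 genes thus passed the threshold for Lig+ over both DN3 and Lig-, and Nr4a1 passed it for Lig- over DN3 too. Nr4a3 could be tested only through its Lig+ DN4 signal, so its calls are descriptions. The pattern of Nr4a2 and Nr4a3, higher in Lig+ against both with no call in Lig- against DN3, was that of 631 probes (1.81%). The pattern of Nr4a1, higher in both and higher in Lig+ than Lig-, was that of 379 probes (1.09%). Whether the gap between Lig+ and Lig- differed among the genes was tested for the 3 pairs with an exact permutation test, adjusted over the 3. Nr4a1 and Nr4a2 differed by -0.20 in their gap (adjusted p = 0.686). The gap of Nr4a1 was 1.08 above that of Nr4a3, and that of Nr4a2 1.28 above it (exact permutation, adjusted p = 0.129 for each), so no pair passed. Both rest on the dim Nr4a3 probe, whose ratios depend on the handling of background. With Agilent's processed signals the difference of Nr4a1 and Nr4a3 turned to -0.27.

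Each channel was then read by itself, after normalisation of the intensities across arrays, since a ratio cannot show which population moved. The Nr4a1 level in Lig+ DN4 cells was 16.04, 16.23, 16.87 and 16.85 on the log2 intensity scale. Lig- DN4 cells gave 12.24, 12.29 and 12.81, well below every Lig+ value. In this channel 11.1% of all probes had every Lig+ array above every Lig- array. The DN4 channel alone put Nr4a1 16.1-fold higher in Lig+ than in Lig- cells (log2 difference of 4.01 ± 0.22, limma adjusted p = 0.000498), the 23rd highest of all probes, with 7.82% of probes passing. With the ratio the log2 difference was 1.76, which is 3.40-fold.

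The DN3 channel separated the array groups in the same direction. On the Lig+ arrays the Nr4a1 level in the DN3 channel was 10.72, 12.50, 12.02 and 11.89 (mean 11.8 ± 0.757, SD, n = 4). On the Lig- arrays, with nontransgenic Rag2-/- DN3 cells in the same channel by their labels, it was 9.12, 9.44 and 9.80 (mean 9.45 ± 0.345, SD, n = 3). The groups did not overlap, although the labels give this channel the same population throughout. The separation is visible in the unnormalised mean signals, which were 1924, 8707, 3823 and 4041 on the Lig+ arrays and 663.2, 1041 and 848 on the Lig- arrays.

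The DN3 channel difference of Nr4a1 was 2.25 ± 0.248, the 3rd highest of 34906 probes after 2 probes of Ephx1 (2.45 and 2.40), which encodes an epoxide hydrolase. It did not pass after adjustment (unadjusted p = 7.97e-05, limma adjusted p = 1; exact permutation p = 0.0571). Over all probes limma called 0 differences in this channel, and 397 (1.14%) had an unadjusted p under the threshold. All Lig+ arrays lay above all Lig- arrays in the DN3 channel for 1.68% of probes. Probes with a difference in one channel tended to differ the same way in the other. The 23 probes with a DN4 difference above 4 had a median DN3 difference of 0.52 (10th to 90th percentile 0.20 to 2.12). The 32701 probes with a DN4 difference between -1 and 1 had a median of 0.02, and the 23 below -4 had -0.57. The cause was not tested.

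**Figure D2:**
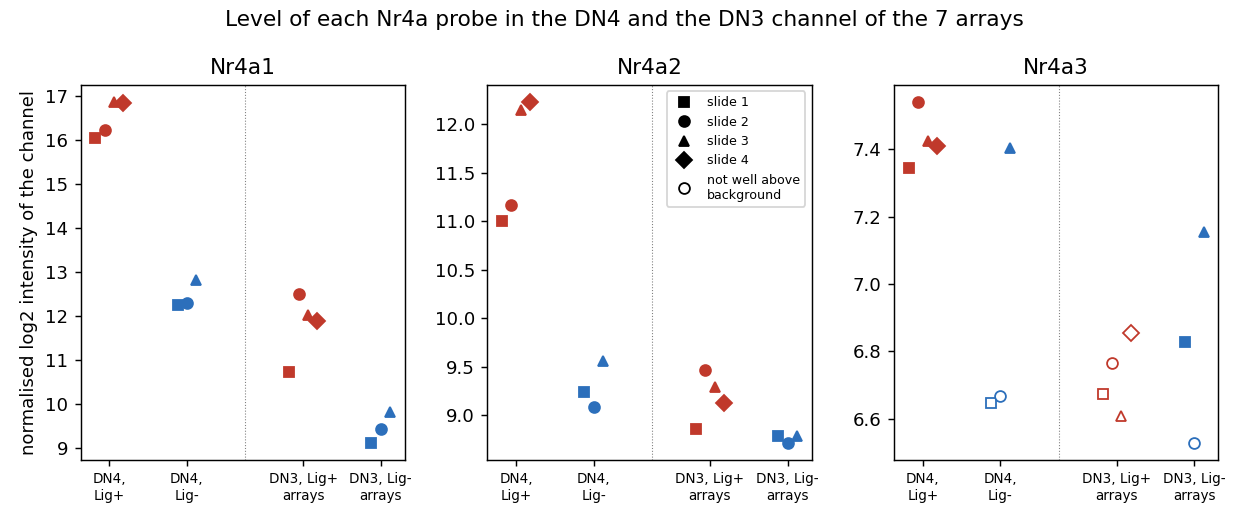
The normalised log2 intensity of each Nr4a probe is plotted for the DN4 and the DN3 channel of each array, with open points where the signal was not well above background and a separate vertical scale for each gene. For Nr4a1 the DN3 channel also separates the Lig+ arrays (10.72 to 12.50) from the Lig- arrays (9.12 to 9.80).

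For Nr4a2 the DN4 level was 11.01, 11.16, 12.15 and 12.23 in Lig+ and 9.24, 9.09 and 9.56 in Lig- cells. The groups again did not overlap, as for 11.1% of all probes in this direction. The DN4 channel alone gave a 4.92-fold difference (2.30 ± 0.317, limma adjusted p = 0.00836), near the value from the ratio. In the DN3 channel Nr4a2 was 8.86, 9.47, 9.29 and 9.12 on Lig+ arrays and 8.79, 8.72 and 8.79 on Lig- arrays. That difference was 0.40 ± 0.145, and the array groups did not overlap, as for 1.68% of all probes in this channel and direction. It did not pass (limma unadjusted p = 0.0306, limma adjusted p = 1, exact permutation p = 0.0571). The step in DN3 was small beside the one in DN4.

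Nr4a3 in the DN4 channel was 7.34, 7.54, 7.42 and 7.41 in Lig+ and 6.65, 6.67 and 7.40 in Lig- cells. The Lig- array of slide 3 reached the Lig+ values. The DN4 channel alone gave 0.50 ± 0.196 and did not pass (limma adjusted p = 0.198), so for Nr4a3 the call between Lig+ and Lig- held for the ratio and not for the DN4 level. Its DN3 levels overlapped, from 6.61 to 6.86 on Lig+ arrays and from 6.53 to 7.16 on Lig- arrays.

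**Figure D3:**
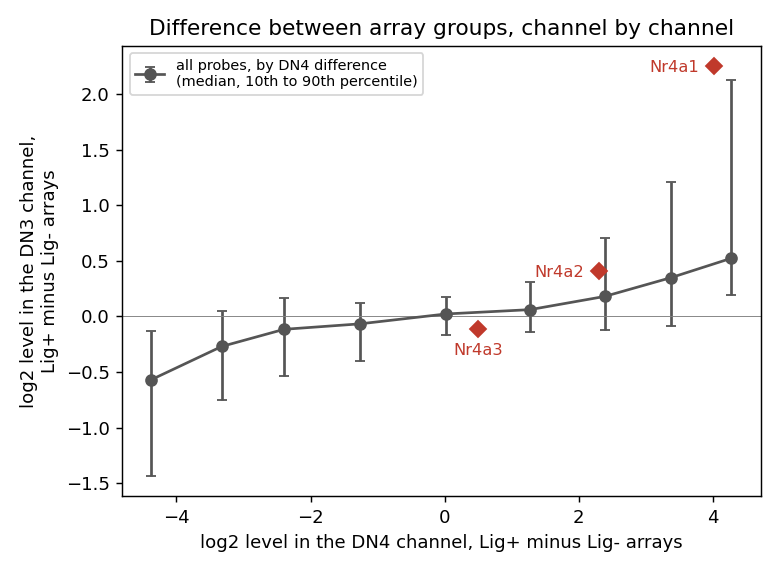
The difference of Lig+ minus Lig- arrays in the log2 level of the DN3 channel is plotted against that of the DN4 channel, with the 3 Nr4a probes over the median and the 10th to 90th percentile of all probes grouped by DN4 difference. Nr4a1 (4.01 and 2.25) lies above the 90th percentile of the group with a DN4 difference above 4 (2.12).

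Other genes of the pathway were read from 5 lists, set beside all probes, whose median was -0.0031 to 0.0027 in the 3 comparisons. Of all probes, 17.7% were higher and 18.9% lower in Lig+ cells than in DN3, 16.3% and 15.5% in Lig- cells, and 4.57% and 6.35% between the groups. The 31 measured immediate early genes included 19 higher and 4 lower in Lig+ against DN3 (median 1.22), and 17 higher and 8 lower in Lig- (median 0.62). In Lig+ against Lig- 12 were higher and 2, Btg2 (-0.89) and Csrnp1 (-1.28), were lower (median 0.74). Egr3, Egr2 and Egr1, zinc finger factors induced by the same receptor signals, had the largest differences of the list. Egr3 was 6.70 ± 0.152 above DN3 in Lig+ and 0.81 ± 0.166 in Lig-, a difference of 5.89 ± 0.214 (limma adjusted p = 0.000226). Its probe was well above background on 4 of 4 Lig+ and 2 of 3 Lig- arrays in the DN4 channel and on 3 of 7 in the DN3 channel, so the sizes depend on how dim signal is handled. Agilent's processed signals gave 8.71, 1.94 and 6.77, and the change in Lig- then missed the threshold (limma adjusted p = 0.0862). Egr2 was 6.09 ± 0.142 above DN3 in Lig+ and 1.39 ± 0.156 in Lig- (limma adjusted p = 0.00101 in Lig-). Its difference was 4.70 ± 0.201 (limma adjusted p = 0.000337). Egr1 was at 6.71 in Lig+ and 4.23 in Lig-, with a difference of 2.48 ± 0.342 (limma adjusted p = 0.00831). Like Nr4a1, all 3 Egr genes were called above DN3 in both groups, Egr3 in Lig- with the limit given above. In the DN3 channel these genes differed by 0.71 (Egr1), 0.35 (Egr2) and 0.23 (Egr3) between the array groups, less than Nr4a1.

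Receptors outside the Nr4a family moved in both directions. Of 37 measured, 8 were higher and 10 lower in Lig+ against DN3 (median -0.03). In Lig- 8 were higher and 5, Nr1h4, Nr2c1, Thrb, Esr1 and Esr2, were lower (median 0.06). Between the groups limma called 0 higher in Lig+ (2 at an unadjusted p under 0.05) and 5 lower, Nr1d2, Nr3c1, Rxrg, Pparg and Vdr (median -0.10). Pparg and Vdr, receptors for fatty acid ligands and vitamin D, were lower in Lig+ than in Lig- by log2 differences of -2.77 ± 0.589 and -1.67 ± 0.307 (limma adjusted p = 0.034 and 0.0214). Both rose above DN3 in Lig- cells (2.46 and 1.86) and stood at -0.31 and 0.19 in Lig+ cells, where neither passed. The Vdr probe was well above background on 3 of 4 Lig+ arrays in the DN4 channel. Nr1d2, the heme receptor REV-ERBβ of the circadian clock, fell below DN3 in Lig+ cells (-1.60 ± 0.12, limma adjusted p = 0.000145) and differed by -1.55 ± 0.17 between the groups (0.0039).

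**Figure D4:**
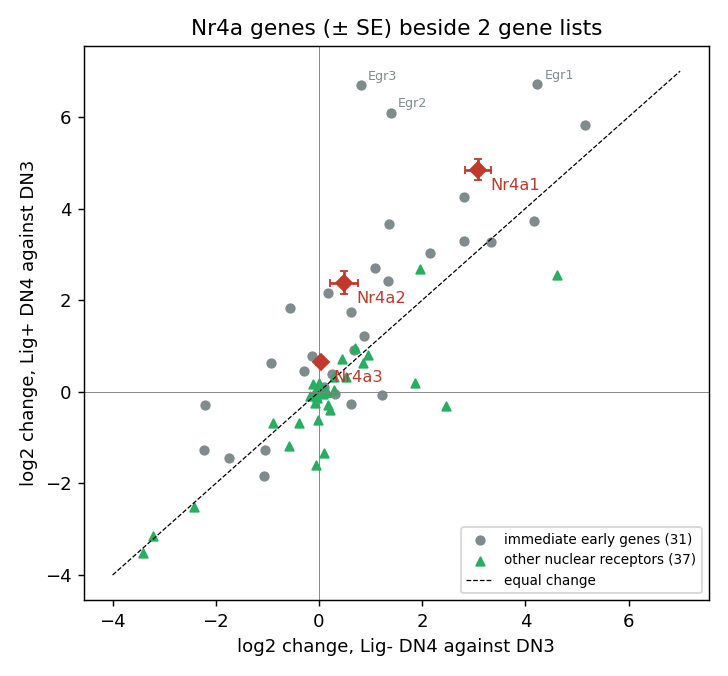
The fitted log2 change of Lig+ DN4 against DN3 is plotted over that of Lig- DN4 against DN3 for 31 immediate early genes (circles), 37 other nuclear receptors (triangles) and the Nr4a genes (diamonds with SE). The 3 Nr4a genes lie above the line of equal change, as do Egr1, Egr2 and Egr3 (both axes share the DN3 population).

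Partners and regulators of the NR4A proteins, such as RXR partners, MEF2 factors, class II deacetylases and kinases, numbered 32. In Lig+ against DN3 12 were higher and 6 lower (median 0.15), in Lig- 17 were higher and 2, Mef2c (-1.67) and Hdac4 (-2.02), were lower (median 0.54). Between the groups limma called 0 higher (4 at an unadjusted p under 0.05) and 8 lower in Lig+ (median -0.23). RXR genes stand in this list and among the nuclear receptors. Hdac7 and Hdac9, deacetylases that act with MEF2 as repressors, rose in Lig- (1.77 and 3.04) and were at 0.47 (limma adjusted p = 0.125) and -0.70 (0.12) in Lig+. Their differences were -1.30 (limma adjusted p = 0.0394) and -3.73 (0.00432). The Hdac9 probe was well above background on 3 of 4 Lig+ and 3 of 3 Lig- arrays in the DN4 channel. In the DN3 channel that held on 5 of 7 arrays, so the sizes for Hdac9 depend on how dim signal is handled. Rps6ka2, a kinase of the RSK family that can phosphorylate Nr4a1, differed by -1.11 (limma adjusted p = 0.00492). Rxra, the gene of a dimer partner of Nr4a1 and Nr4a2, was named after its values were seen; it was above DN3 in Lig+ (2.68 ± 0.133) and Lig- (1.96 ± 0.146).

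Of 18 measured genes linked to NR4A activity in mature T cells, 11 were higher in Lig+ against DN3 and 4, Ctla4, Runx1, Socs1 and Entpd1, were lower (median 1.15). In Lig- 8 were higher and 7 lower (median 0.01). In Lig+ against Lig- limma called 4 higher and 0 lower (3 lower at an unadjusted p under 0.05, median 0.19). The 4 were Nt5e, Irf4, Lag3 and Izumo1r. Nt5e, the ectoenzyme CD73, was 3.57 ± 0.193 above DN3 in Lig+ and -0.27 in Lig- (limma adjusted p = 0.39), a difference of 3.84 ± 0.273 (0.00121). Its DN3 channel difference was 1.55, among the 10 highest. The Nt5e probe was well above background on 2 of 3 Lig- arrays in the DN4 channel. Irf4, a factor whose amount follows receptor signal strength, differed by 3.15 ± 0.209, and Lag3, an inhibitory receptor, by 2.22 ± 0.278.

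The list of genes tied to thymic negative selection, the process Nr4a1 is best known for, had 21 measured members. In Lig+ against DN3 14 were higher and 2, Bcl2l11 and Smim3, lower (median 0.93). In Lig- 8 were higher and 3, Fasl, Bcl2a1b and Smim3, lower (median 0.55). Between the groups 7 were higher in Lig+ and 2 lower (median 0.68). Bcl2l11 and Bbc3, which encode the death-promoting proteins BIM and PUMA, were the lower genes (-1.62 and -1.02). Tnfrsf9, the costimulatory receptor 4-1BB, differed by 3.95 ± 0.458 (limma adjusted p = 0.00481). Bcl2a1b, a survival gene of the Bcl2 family whose near-identical copies its probe may also read, differed by 2.25 ± 0.196 (0.00202), and Fasl, the death ligand, by 2.16 ± 0.366 (0.0167). The members that moved thus included both survival and death genes.

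The genes whose 7 ratios were most like those of each member were taken by the root mean square (RMS) difference among 17815 genes, a description since values chose them. For Nr4a1 they were Samhd1 (RMS difference of 0.377), Ms4a4b (0.399), Gimap7 (0.437), Evl (0.46) and Btla (0.532), against a median of 4.11 over all genes. For Nr4a2 they were Lactb (0.208), Dubr (0.265), Nlrc4 (0.271), Adgrg5 (0.309) and Cyp20a1 (0.319), against a median of 1.96. For Nr4a3 they were Ebp (0.114), 1700025G04Rik (0.118), 4930579G18Rik (0.119), Ap1g2 (0.126) and Arpc4 (0.129), against a median of 0.636. The Nr4a genes were left out of the genes searched, so their likeness to each other was not read here.

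Markers of other cells that the sort could hold were set beside these changes. Of 11 macrophage and monocyte markers, 9 were lower in Lig+ DN4 than in DN3 cells and 1, Itgam, was higher. Itgam was also the 1 marker of that list higher in Lig+ than in Lig- (1.61). Of 8 markers of NK and innate lymphoid cells, Klrk1 (2.33) and Eomes (3.09) were higher and Gata3 (-2.69) lower in Lig+ than in Lig-. Of 9 dendritic cell markers, H2-Ab1, a class II MHC chain, was higher (2.83), and of 8 B cell markers Ebf1 was lower (-0.74). The mean log2 level of the macrophage markers was 9.47 to 10.54 in Lig+ DN4, 9.30 to 9.78 in Lig- DN4 and 10.69 to 10.92 in DN3. Whether other cells took part in the Nr4a values was not tested.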

How the data were processed

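RNA of sorted DN4 and DN3 thymocytes was labelled with Alexa 555 or Alexa 647 and read on 7 arrays with Agilent Feature Extraction (version 9.5.1.1 in the submitters' processing notes and in the headers of slides 1 and 2, version 9.5.3.1 in those of slides 3 and 4). The deposited scanner files hold spot intensity values, per the file headers. The series table that the authors deposited gives log10 ratios, which equal Agilent's log10 ratio turned to DN4 over DN3 within 4.87e-08. DN4 carried Alexa 647 on slide 1 and Alexa 555 on slides 2 to 4, per the labels. Arrays were placed in groups by their labels, and replicates were numbered in sample order, as names only, which put the same numbers of Lig+ and Lig- on the same slide.

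Mean intensities and local backgrounds were analysed in R 4.3.3 with limma 3.58.1 (normexp with an offset of 50, then loess with the 1639 control spots at weight 0). Spots marked as outliers (0.354%) were left out and spots of one probe averaged. Probes that cleared background on 3 or more arrays in either channel (34906) entered 1 fit of the turned log2 ratios with terms for Lig+, Lig- and dye (lmFit and eBayes, 4 residual degrees of freedom). The dye term passed the threshold in 289 probes and in none of the 3 Nr4a probes (limma adjusted p of 0.471 to 0.724). Channel levels were scaled by the Aquantile method after loess. The fit was tested on simulated data with 50 probes changed in Lig+ at each of 4 sizes. Between Lig+ and Lig- it recovered 2 of 50 changes of log2 0.5 and 22 of 50 of log2 1. It recovered 43 of 50 of log2 2 and 49 of 50 of log2 4, with 5 false calls. Small differences between the groups could thus go uncalled. A gene with several probes was read from its brightest.

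Named genes were every Nr4a probe, up to 3 genes of each pathway list with the largest called Lig+ to Lig- difference, the 5 genes most like each member, Rag2 and Cd3e, and others are marked or belong to short counts. The members and lists were chosen with earlier results of these data known. The alternatives changed background, normalisation, probe filter, dye term, slide and scan day blocks, the arrays entered and probes per gene, and the DN4 channel alone was added after seeing the data. Sequences are RefSeq's, for GRCm38.p6, and all 3 promoters matched by symbol. Some genes of the nuclear receptor list are left out here, from its counts too.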

Additional observations from a re-analysis of the deposited data

Results flagged for a closer look

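The ratio of DN4 over DN3 differed between Lig+ and Lig- cells, by the test of the difference itself, for each of the 3 Nr4a probes. The log2 difference, Lig+ minus Lig-, was 1.76 for Nr4a1, 1.89 for Nr4a2 and 0.62 for Nr4a3 (limma adjusted p = 0.0208, 0.0213 and 0.0224). Every Lig+ array lay above every Lig- array for each, as for 10.6% of all probes. The Nr4a3 probe entered the test only through its Lig+ DN4 signal. Whether any array stood apart from the others of its set was tested in 9 sets of 4 values or more, and 0 did. The 3 Lig- arrays alone are too few for such a set, so none was tested against its own group.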

How the results depend on the processing

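Nr4a1, Nr4a2 and Nr4a3 in Lig+ against DN3 and Nr4a1 in Lig- against DN3 passed the threshold under each alternative run that tested them. Their ranges were 4.53 to 5.10, 1.92 to 2.98, 0.53 to 1.98 and 2.99 to 3.34. Nr4a3 was not tested in the run limited to probes above background on every array. Nr4a2 in Lig- against DN3 passed with scan day as a fixed term (0.73), on day 1 alone (0.41) and on day 2 alone (0.78, with 1 Lig- array), and Nr4a3 there turned to -0.023 on day 1 alone and ran from -0.023 (without Lig- replicate 3) to 0.17 with 1 array left out. Leaving out 1 array at a time gave 1.58 to 2.05 for Nr4a1, 1.70 to 2.17 for Nr4a2 and 0.52 to 0.69 for Nr4a3 in Lig+ against Lig-, with limma adjusted p of 0.00112 to 0.117, 0.00365 to 0.0969 and 0.0238 to 0.13. Without replicate 1 of a group, the other array of slide 1 then only sets the dye term. Nr4a3 between the groups missed the threshold on day 2 alone (0.44) and in the DN4 channel alone (0.50). Fits within a day have 1 residual degree of freedom, so their calls carry little weight. With slide as a fixed replicate block, which pairs the Lig+ and Lig- arrays of slides 1 to 3, the values were 1.64, 1.70 and 0.68, and no call of the 3 genes between the groups changed. The gap of Nr4a1 minus that of Nr4a3 turned to -0.27 with Agilent's processed signals and with the authors' deposited log ratios.

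The count of probes past the threshold was 12777 in Lig+ against DN3, 22430 on day 1 alone and 5617 to 13148 with 1 array left out (5617 without Lig+ replicate 1). In Lig- against DN3 it was 11081, 22257 on day 1 alone, 7380 with the group's own arrays only, 7381 with 1 probe for each gene and 3887 to 12242 with 1 array left out (3887 without Lig- replicate 1). Between Lig+ and Lig- it was 3812, 2414 with median centring, 8303 with slide and 6711 with scan day as a random block, 7722 with day fixed, 15354 on day 1 alone, 6125 on day 2 alone, 7162 with the slide replicate block and 963 to 4939 with 1 array left out (963 without replicate 1 of either group).

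Among the other named genes, 2042 alternative values of 96 results gave 1838 of the same direction and call, 136 no longer past the threshold, 46 newly past it and 22 of opposite sign. In Lig+ against DN3 the opposite signs were Vdr (-0.057 without the dye term and -0.43 on day 2), Pparg (0.18 on day 1 and -0.56 to 0.14 with 1 array left out), and Hdac9 (0.28) and Hdac7 (-0.19) on day 2. In Lig- against DN3 they were Nr1d2 (0.13 on day 1 and -0.19 to 0.13 with 1 array left out), Arpc4 (-0.011 with Agilent's signals or the authors' ratios and -0.10 with median centring), Ebp (0.013 without the dye term, 0.23 on day 2, -0.095 to 0.028 with 1 array left out) and 1700025G04Rik (0.0055 with day as a random and 0.017 as a fixed block, 0.22 on day 2, -0.12 to 0.083 with 1 array left out). Rag2 between the groups turned to 0.059 without Lig+ replicate 2 and 0.079 without Lig- replicate 3. The cause was not tested. The dim signal of Nr4a3 limits its size.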
